A study of Mus musculus with 8 samples.

Results

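The ephrins, Slits, netrins and their receptors are the guidance genes described here, followed in tumour cells of a mouse small cell lung cancer line grown in 3 organs and in the mouse cells around them. Members were all genes whose symbol starts with Epha, Ephb, Efna, Efnb or Unc5, together with Robo1 to Robo4, Slit1 to Slit3, Ntn1, Ntn4, Ntn5, Ntng1, Ntng2 and Dcc. This gave 41 of the 22056 genes in the tables. Ntn3 was not analysed here. Of the 41, Unc50 and Unc5cl were matched by the letters of their symbols only and are not netrin receptors, so 39 were guidance genes.

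The 8 samples were 10x Genomics 3′ single-cell libraries of allografts of N2N1G, a mouse line of the neuroendocrine lung tumour small cell lung cancer. Brain (n = 2) and subcutaneous (n = 3) allografts were started by direct injection and liver allografts (n = 3) through the tail vein, with 1000000 cells per allograft and a harvest after 3 weeks, so site and route cannot be told apart in the comparisons with liver. Every sample came from this single line, healthy cells were sorted before library preparation, and the labels do not say whether the allografts of a site grew in separate animals or give the strain of the mice, so p-values measure the spread between these samples. The series title asks how neuron-like mechanisms bear on growth in the brain, and the question here is which guidance genes differed between the 3 sites.

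Ephrins are ligands held on the cell surface, the A type by a lipid anchor and the B type by a membrane-spanning segment, and they bind Eph receptor tyrosine kinases on neighbouring cells, where both partners can signal. Slits are secreted proteins that bind Robo receptors and repel growing axons in the developing nervous system. Netrins are laminin-like proteins that attract axons through Dcc and repel them through Unc5 receptors, and the same 3 systems also act in blood vessels and in migrating cells.

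Tumour cells were those in which transcripts of the eGFP reporter and of the Mycl oncogene made up at least 0.2% of unique molecular identifiers (UMIs, each standing for 1 captured transcript). This gave 34719 tumour cells among 36797 kept cells, 2418 to 6276 per library, with 21689091 to 62047017 UMIs per library. The neuroendocrine marker Chga was at 383 to 669 CPM (the UMIs of a gene per 1000000 UMIs of the summed cells) in all 8 sums. Another 1370 cells with under 0.05% of such UMIs were taken as host cells, and 708 cells between the limits were used in neither set. Host transcripts were not evenly spread among the tumour cells: the 10 macrophage markers summed to 407 and 58.9 CPM in the brain samples, 5.25 to 11.8 in liver and 1.97 to 37.2 in subcutaneous samples, and 0 of the 10 were at 0 in every sample. Oligodendrocyte markers, 7 genes led by Mbp, summed to 156 and 223 in brain and to 38.5 to 47.8 elsewhere. Subcutaneous replicate 1 stood nearer to the brain mean than to the mean of the other subcutaneous samples in 18 of 30 tested members (60.0%), and in 53.3% of all genes tested. Of 37556 cell barcodes, 882 (2.35%) occurred in at least 2 libraries, 20 to 56 per pair of libraries.

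The windows just upstream of the start sites of Unc5cl, Efna5 and Epha8 are shown because these genes had the largest fold changes past the threshold between brain and liver, the first pair higher and the last lower in brain. The sequences are from RefSeq (GRCm38.p6), 250 bases ending at the base before the start site, 5′ to 3′ on the strand of the gene, with CpG dinucleotides in capitals.
Unc5cl, chr17:48454651-48454900, plus strand: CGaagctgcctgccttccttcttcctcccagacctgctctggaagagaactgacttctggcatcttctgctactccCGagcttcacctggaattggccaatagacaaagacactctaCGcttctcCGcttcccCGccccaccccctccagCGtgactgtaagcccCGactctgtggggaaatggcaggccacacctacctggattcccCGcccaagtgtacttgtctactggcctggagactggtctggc
Efna5, chr17:62881318-62881567, minus strand: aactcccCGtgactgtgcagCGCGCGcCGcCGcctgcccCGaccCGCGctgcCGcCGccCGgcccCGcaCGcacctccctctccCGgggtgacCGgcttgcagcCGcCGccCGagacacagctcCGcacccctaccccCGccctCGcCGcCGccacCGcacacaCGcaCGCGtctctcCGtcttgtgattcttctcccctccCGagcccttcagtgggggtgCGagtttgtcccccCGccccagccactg
Epha8, chr4:136956817-136957066, minus strand: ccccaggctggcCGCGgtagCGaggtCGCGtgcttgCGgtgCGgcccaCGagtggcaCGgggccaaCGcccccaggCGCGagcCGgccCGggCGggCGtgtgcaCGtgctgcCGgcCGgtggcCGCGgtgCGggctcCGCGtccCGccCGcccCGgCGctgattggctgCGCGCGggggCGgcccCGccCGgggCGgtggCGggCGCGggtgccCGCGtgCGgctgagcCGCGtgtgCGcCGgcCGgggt
No annotated exon overlapped these windows. The Efna5 window held 32 CpG dinucleotides at 74.8% G and C and the Epha8 window 46 at 84.0%, while the Unc5cl window held 8 at 58.4%, against a median of 6 and 52.4% over 32851 mouse promoters. Efna5, higher in brain, and Epha8, lower in brain, thus both had windows with more CpG than the median promoter. The E-box CAGCTG, a core recognised by basic helix-loop-helix factors and its own reverse complement, was in 14.6% of 41 member promoters (36 genes) and in 13.0% of all, and it was in none of the 3 windows shown. The homeodomain core TAATTA, also its own reverse complement and with no overlap with the E-box, was in 7.32% of the member promoters and in 4.84% of all.

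In tumour cells the guidance systems were unevenly filled. Of the 41 members, 10 reached a mean of 10 CPM in at least 1 site, 17 reached 1 to 10 in their highest site and 14 stayed under 1 in every site. These are 3′ UMI counts without correction for how well each transcript is captured, so they are not ranked between genes here. The first class held the receptors Epha5, Ephb2, Ephb3, Ephb6, Robo2 and Unc5a, the ligands Efna2, Efna5 and Slit1, and Unc50. The third class held all netrin-G genes, Ntn5, Dcc, Robo3, Robo4, Slit3, Unc5b, Unc5c, Efna1, Ephb4, Epha1, Epha6 and Epha10. Dcc, the attractive netrin receptor, was at 0.17 ± 0.048 CPM in brain (SD, n = 2), 0.069 ± 0.030 in liver (n = 3) and 0.16 ± 0.041 under the skin (n = 3). Slit3 had 9 UMIs in subcutaneous replicate 1 and 1 in liver replicate 3, and Robo4 had 3 in brain replicate 1 and 1 in subcutaneous replicate 1, with 0 in the other tumour samples. Of the 41 members, 30 passed the filter on low counts and were tested, and the other 11 lay between 0 and 0.277 CPM in every sample.

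Fold changes below use TMM scaling, which sets the bulk of genes level between samples. CPM use library totals, on which the median of all genes lay 0.114 higher (log2) in brain than in liver and 0.112 lower in liver than in subcutaneous tumours than under TMM. A level and its fold change can therefore differ by about that much.

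Of the members with a site mean of at least 10 CPM, Efna5, Unc5a and Ephb6 passed the threshold in at least 1 contrast and are given further below. Ephb3, a receptor for B-type ephrins, was at 28.2 ± 1.70 CPM in brain, 26.0 ± 0.9745 in liver and 28.9 ± 1.48 under the skin (SD, n = 2, 3 and 3). Its log2 fold change of brain over liver was under 0.01 with a 95% interval of -0.22 to 0.22, and that of brain over subcutaneous tumours was -0.04 with an interval of -0.26 to 0.18. Robo2, a Slit receptor, was at 39.1 ± 4.82, 31.9 ± 5.69 and 34.6 ± 4.44, and its brain over liver interval ran from -0.22 to 0.58. Slit1, a ligand of Robo receptors, was at 20.8 ± 4.61, 21.8 ± 3.39 and 24.6 ± 0.384, with a brain over liver interval of -0.58 to 0.20. Epha5, a receptor for A-type ephrins, was at 54.1 ± 1.62, 48.4 ± 4.51 and 62.7 ± 10.3. Ephb2 and Efna2 gave 32.8 ± 4.85, 22.2 ± 3.08 and 32.4 ± 8.67, and 30.2 ± 1.10, 26.2 ± 2.29 and 31.5 ± 6.86, in the same order of sites. Of these 6 members none passed the threshold in any contrast of the fit with all 8 samples, and a wide interval leaves room for a difference. Without subcutaneous replicate 1, Ephb2 passed between brain and liver (adjusted p = 0.0317 by edgeR). Epha5 then passed between brain and subcutaneous tumours (adjusted p = 0.0445 by edgeR). Unc50, matched by its letters, was at 53.0 ± 6.45, 47.5 ± 4.24 and 49.6 ± 3.38.

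Between brain and liver 9 of the 30 tested members passed an adjusted p of 0.05 (edgeR's quasi-likelihood test, Benjamini-Hochberg over all 13931 genes tested), 4 higher and 5 lower in brain. Over all genes 21.8% passed (13.2% higher and 8.56% lower), and the members' share was 30%. Their median log2 fold change was -0.12, with that of all genes within 0.01 of 0. On CPM the values of the 2 sites did not overlap for 17 of the 30 members and for 53.2% of all genes. The higher members were the ligand Efna5, the netrin receptors Unc5a and Unc5d, and Unc5cl. The lower members were the ligands Efna3 and Slit2 and the receptors Epha2, Epha8 and Ephb6. Between brain and subcutaneous tumours 7 of 30 passed, 1 higher and 6 lower (23.3%, against 15.1% of all genes, 8.94% higher and 6.13% lower), with a median of -0.26, and 12 did not overlap (46.8% of all genes). Between liver and subcutaneous tumours 1 of 30 passed, lower in liver (3.33%, against 2.83% of all genes, 0.933% higher and 1.90% lower), and 11 did not overlap (27.7% of all genes). On TMM-scaled values 19, 13 and 10 members did not overlap in the 3 contrasts in this order, beside 53.7%, 47.1% and 24.9% of all genes. On library totals without TMM, 5 members were higher and 3 lower in brain than in liver, with Ntn4 added and Slit2 and Ephb6 (adjusted p = 0.0614 and 0.0607 by edgeR) lost, and 76.5% of all calls were higher in brain in place of 60.7%. On that scale 3 members were lower in liver than in subcutaneous tumours (Efnb2, Ephb1 and Efnb3), and 15.7% of all calls were higher in liver in place of 33.0%. The contrasts with brain share the brain samples, and each contrast shares a site with the other two.

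**Figure D1:**
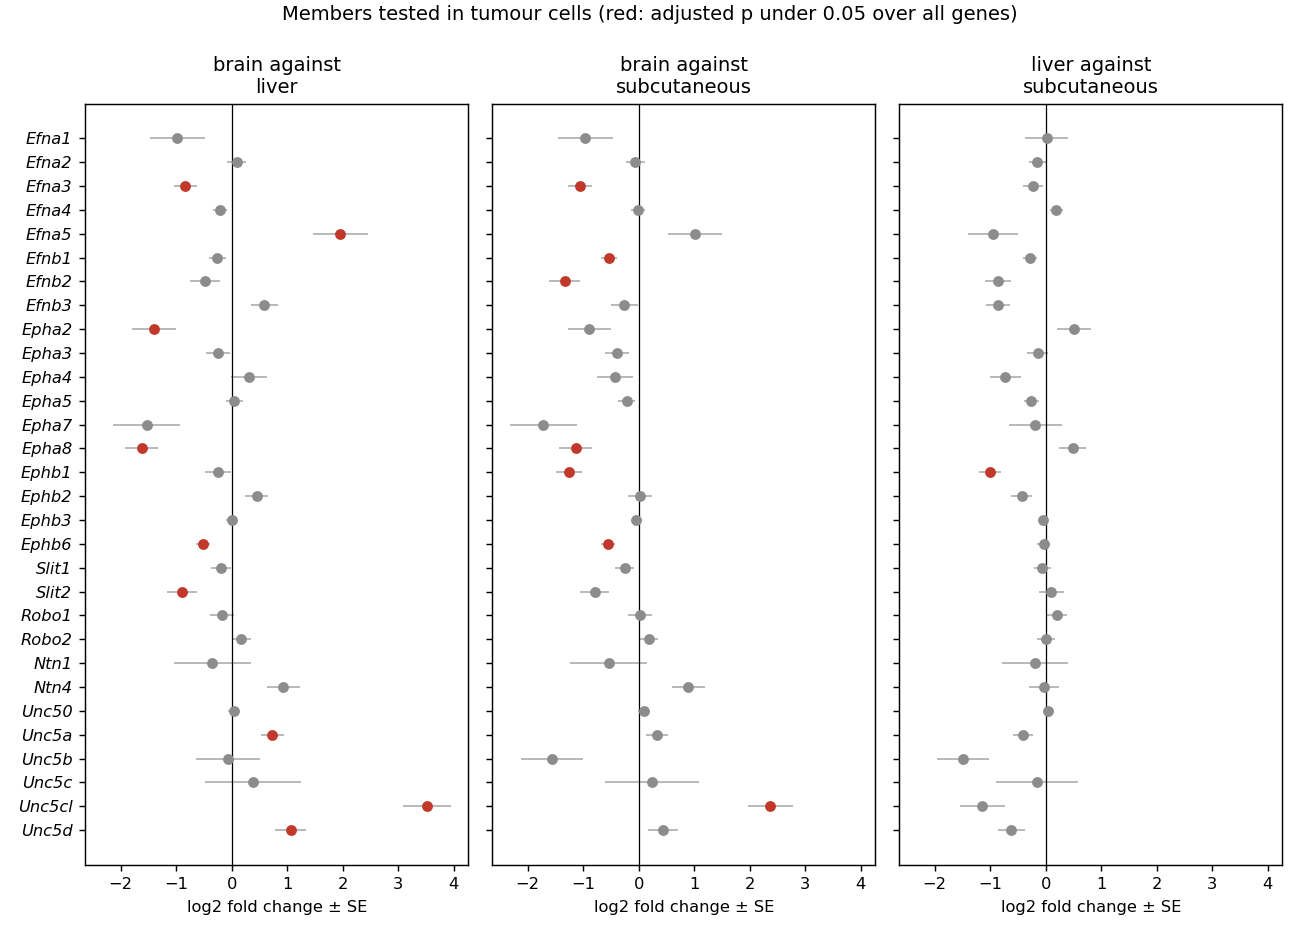
Log2 fold changes (points) with standard errors (bars) of the 30 tested members, ordered by family, in the 3 site contrasts, with points in red at an adjusted p under 0.05 over all genes. In the left panel 4 members are red to the right of 0 and 5 to the left, in the middle panel 1 and 6, and in the right panel Ephb1 alone is red.

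These counts lean on single samples. The calls over all genes moved in the same way when a sample was left out, so this is not particular to the members. Their ranges are given with the processing checks below. Without brain replicate 1 there were 2 calls between brain and liver and 0 between brain and subcutaneous tumours, and without brain replicate 2 also 2 and 0. In the brain and liver contrast Unc5cl kept its call in both fits, Epha8 only without brain replicate 1 and Unc5a only without brain replicate 2. Leaving out liver replicate 1, 2 or 3 left 3 calls in that contrast each time, with Unc5cl among them. Without subcutaneous replicate 2 or 3 the contrast of brain with subcutaneous tumours held 3 and 2 calls. Without subcutaneous replicate 1 the calls rose to 13, 15 and 4 in the 3 contrasts in the order above, while those over all genes rose to 32.9%, 34.3% and 7.39%. The call of Ephb1 between liver and subcutaneous tumours held without subcutaneous replicate 1 or 3 and was lost without any of the 6 other samples. The 15 members of the second contrast then included Efna5, Epha7, Ntn4, Unc5d and Slit2.

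Among the ligands, Efna5 (ephrin-A5, a binder of EphA receptors) was at 28.2 and 38.2 CPM in the brain samples, 8.89, 7.65 and 7.10 in the liver samples, and 30.4, 8.86 and 10.2 in the subcutaneous samples. Both brain samples and subcutaneous replicate 1 were high, and the other subcutaneous samples lay next to liver. Its level in brain was 3.89-fold that in liver (log2 fold change 1.96, SE 0.49, adjusted p = 0.0279 by edgeR), and brain and liver did not overlap. Against subcutaneous tumours the log2 fold change was 1.02 (SE 0.49, adjusted p = 0.197), and without subcutaneous replicate 1 it was 1.81 (SE 0.18, adjusted p = 7.289e-05 by edgeR). The brain and liver call was lost without brain replicate 1 (adjusted p = 0.0569) and without brain replicate 2 (adjusted p = 0.106), where the log2 fold changes were 2.18 and 1.72.

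Efna3, another A-type ephrin, went the opposite way. It was at 4.57 and 4.03 CPM in brain, 6.36, 6.54 and 8.27 in liver, and 6.91, 10.8 and 8.86 in subcutaneous tumours, with both brain samples under the 6 others. The log2 fold change of brain was -0.83 over liver (SE 0.21, adjusted p = 0.0246) and -1.05 over subcutaneous tumours (SE 0.21, adjusted p = 0.0152).

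Of the B-type ephrins, Efnb2 was at 2.72 and 2.07 in brain, 3.34, 3.41 and 2.40 in liver, and 4.34, 6.61 and 6.96 in subcutaneous tumours. The subcutaneous samples were above all others, while brain and liver overlapped. Brain was lower than subcutaneous tumours (log2 fold change -1.33, SE 0.28, adjusted p = 0.0173), and the difference between brain and liver did not pass (-0.48, adjusted p = 0.245). Efnb1 was at 4.75 and 5.22 in brain, 4.96, 5.39 and 6.19 in liver, and 6.71, 7.27 and 7.73 in subcutaneous tumours, again highest under the skin. Brain fell below subcutaneous tumours by 0.54 on the log2 scale (SE 0.15, adjusted p = 0.0427). This call was lost in 11 of 20 alternative settings, and without tumour cells holding a host marker UMI the log2 fold change was -0.24 (adjusted p = 0.515 by edgeR, with a range of 0.0154 to 0.515 over the settings).

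Among the Eph receptors, Epha8 was at 2.03 and 1.34 in brain, 5.51, 5.25 and 3.35 in liver, and 3.48, 3.22 and 4.24 in subcutaneous tumours. Both brain samples lay under the 6 others. The log2 fold change was -1.62 against liver (SE 0.30, adjusted p = 0.0069) and -1.13 against subcutaneous tumours (SE 0.30, adjusted p = 0.0344).

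Ephb6, an Eph receptor without kinase activity, was at 9.31 and 10.1 in brain, 13.0, 12.04 and 13.4 in liver, and 15.6, 12.5 and 14.5 in subcutaneous tumours, with brain lowest and no overlap. It fell by 0.51 against liver (SE 0.13, adjusted p = 0.0235) and by 0.55 against subcutaneous tumours (SE 0.13, adjusted p = 0.0254) on the log2 scale. Epha2 was at 0.553 and 0.362 in brain, 1.13, 0.983 and 1.17 in liver, and 0.552, 0.886 and 1.04 in subcutaneous tumours. Brain and liver did not overlap, and subcutaneous replicate 1 lay within the brain values. These levels rest on 12 to 14 UMIs per brain sample, and the log2 fold change of brain over liver was -1.40 (SE 0.39, adjusted p = 0.0337). The call was lost in 9 of 20 alternative settings (adjusted p from 0.00651 to 0.197 by edgeR), and the log2 fold change was -4.09 without tumour cells holding a host marker UMI. That setting kept 2700752 and 13369080 UMIs in the brain samples, which at the levels above leaves few Epha2 UMIs. The value of -4.09 is therefore not read as a larger difference.

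Ephb1 was the receptor past the threshold between subcutaneous tumours and both other sites. It was at 2.12 and 2.02 in brain, 2.55, 2.11 and 2.14 in liver, and 5.97, 4.996 and 3.83 in subcutaneous tumours, which lay above all 5 other samples. Brain was lower than subcutaneous tumours (log2 fold change -1.26, SE 0.24, adjusted p = 0.0120) and so was liver (-1.01, SE 0.20, adjusted p = 0.0369). Brain and liver overlapped (-0.25, adjusted p = 0.487). Without tumour cells holding a host marker UMI, brain against subcutaneous tumours gave -1.92 (adjusted p = 0.00565 by edgeR). Unc5b, a netrin receptor, was also above all other samples under the skin (1.10, 0.435 and 0.597 CPM, against at most 0.314) and did not pass (adjusted p = 0.0913 against brain and 0.127 against liver by edgeR).

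In the Slit and Robo system, Slit2 was at 3.87 and 3.41 in brain, 7.21, 5.73 and 5.78 in liver, and 4.15, 7.27 and 7.42 in subcutaneous tumours. Both brain samples were lowest, with subcutaneous replicate 1 next above them. The log2 fold change of brain over liver was -0.90 (SE 0.27, adjusted p = 0.0409), and over subcutaneous tumours it was -0.80 (SE 0.27, adjusted p = 0.0742). The receptors Robo1 and Robo2 passed in none of the contrasts.

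In the netrin system, Unc5a was at 15.4 and 10.1 in brain, 7.55, 6.94 and 6.56 in liver, and 11.8, 8.46 and 10.1 in subcutaneous tumours. Brain lay above liver and within or above the subcutaneous range, and the brain samples differed from each other by more than the liver samples did. The log2 fold change of brain over liver was 0.74 (SE 0.20, adjusted p = 0.0305), and without brain replicate 1 it was 0.43 (adjusted p = 0.206 by edgeR). Unc5d was at 3.37 and 3.26 in brain, 1.58, 1.46 and 1.34 in liver, and 3.33, 2.08 and 1.91 in subcutaneous tumours, with subcutaneous replicate 1 at the level of brain. Its log2 fold change over liver was 1.06 (SE 0.27, adjusted p = 0.0242). Ntn4, a netrin of basement membranes, was at 6.59 ± 1.90 in brain, 3.17 ± 0.302 in liver and 3.53 ± 1.35 under the skin and did not pass (adjusted p = 0.0552 against liver and 0.0753 against subcutaneous tumours, by edgeR). Ntn1, the founding netrin, was at 5.35 in subcutaneous replicate 1 and between 1.08 and 2.59 in the 7 other samples.

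Unc5cl, matched by its letters and not a guidance receptor, had the widest site difference of the tested members. It was at 3.87 and 4.31 in brain, 0.364, 0.481 and 0.130 in liver, and 0.863, 0.822 and 0.674 in subcutaneous tumours, and the 3 sites did not overlap. Brain was 11.5-fold above liver (log2 fold change 3.52, SE 0.43, adjusted p = 0.0015) and 5.19-fold above subcutaneous tumours (2.38, SE 0.41, adjusted p = 0.0082). The liver values rest on 6 to 23 UMIs per sample. The call against subcutaneous tumours was lost without brain replicate 1 (adjusted p = 0.0509 by edgeR) and without brain replicate 2 (adjusted p = 0.0574).

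**Figure D2:**
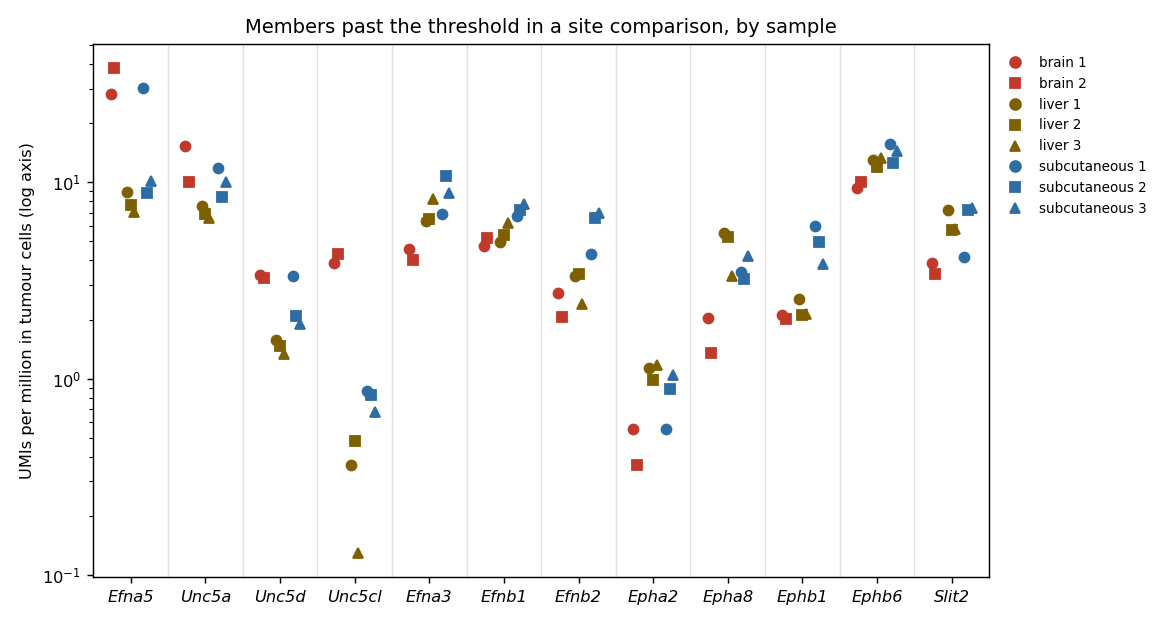
CPM in tumour cells (log axis) of the 12 members that passed the threshold in at least 1 site contrast, with 1 point per sample, brain in red, liver in brown and subcutaneous tumours in blue. Unc5cl and Efna5 stand highest in brain against liver, Efna3, Epha8 and Ephb6 lowest in brain, and Ephb1 highest in the subcutaneous samples.

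Levels summed over cells do not separate the number of cells with a transcript from the amount per cell, so cells were also thinned to 3000 UMIs and counted, leaving out 48 to 180 shallower tumour cells per library. An Efna5 UMI was then seen in 7.87% and 11% of tumour cells in brain, 2.22%, 2.19% and 2.20% in liver, and 7.98%, 2.54% and 2.77% in subcutaneous tumours. Before thinning the means were 21.1 ± 5.09% (SD, n = 2) in brain, 7.67 ± 1.53% (n = 3) in liver and 12.8 ± 7.62% (n = 3) in subcutaneous tumours. For comparison, 7 of 414 thinned macrophage-like and microglia-like host cells (1.69%) had an Efna5 UMI. Before thinning, brain replicates 1 and 2 supplied 333 and 88 of the 476 macrophage-like cells. They also supplied 173 and 48 of the 221 microglia-like cells, so this share is not a background for the liver libraries. The median depth of those host cells was 3489 UMIs before thinning, and 283 of 697 were too shallow to use, against medians of 7971.5 to 10542 UMIs in tumour cells.

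At this depth 27.8% to 38.7% of tumour cells per sample held a UMI of any Eph receptor and 15.1% to 24.4% one of any ephrin, against 3.86% and 6.28% of the thinned myeloid-like host cells. Both an Eph receptor and an ephrin were seen in the same cell in 7.78% and 8.30% of brain tumour cells, 5.18%, 4.81% and 4.74% of liver tumour cells, and 9.34%, 7.64% and 7.22% of subcutaneous tumour cells. A Robo UMI was seen in 12.2 ± 1.77% of tumour cells in brain, 10.3 ± 1.65% in liver and 11.3 ± 1.66% under the skin (SD, n = 2, 3 and 3), and in 0 of the 414 host cells, which allows a share of up to 0.725%. A UMI of Unc5a to Unc5d or Dcc was seen in 4.90 ± 1.00%, 2.55 ± 0.196% and 3.96 ± 0.991%, in the same order.

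Within the tumours the members were not evenly spread over cells. Tumour cells were clustered on variable genes from which the 41 members had been left out, which gave 13 clusters. The levels below describe these cells, with no test, since clusters come from the same cells. Efna5 was highest in cluster 7 (led by Islr, Islr2 and Ppp1r14c) at 65.4 CPM and in cluster 8 (led by Tm4sf1, Des and En1) at 64.2, and it was lowest in cluster 12 at 1.97. Within cluster 8 it was at 66.6 and 65.3 in brain, 41.0, 33.3 and 50.1 in liver, and 73.0, 50.4 and 56.5 in subcutaneous tumours, on 20 to 954 UMIs. In the cells outside clusters 7 and 8 it was at 7.08 and 12.1 in brain, 8.18, 7.29 and 6.34 in liver, and 18.2, 7.27 and 8.81 in subcutaneous tumours. Inside the pair of clusters the brain samples were thus above liver and level with part of the subcutaneous samples, and outside them brain replicate 1 lay within the liver range.

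The pair of clusters supplied 83.8% and 83.3% of Efna5 UMIs in the brain samples, from 870 of 2418 and 2100 of 4060 tumour cells. In liver they supplied 10.0%, 6.01% and 12.5%, from 122, 67 and 117 cells. In subcutaneous tumours they supplied 54.2%, 20.7% and 16.6%, from 1175, 268 and 241 cells, with replicate 1 again between brain and the others. The pair was picked for the highest Efna5 levels after the values were seen, so part of these shares follows from the choice. The part of the number of these cells in the site difference of Efna5 was not tested.

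Unc5cl was at 11.2 CPM in cluster 8. Within that cluster it was at 8.04 and 9.58 in brain, 14.1, 31.7 and 15 in liver, and 6.30, 34.2 and 39.4 in subcutaneous tumours, so the order of the sites was not that of the sums. Outside clusters 7 and 8 it was at 2.08 and 1.18 in brain, at most 0.124 in liver and at most 0.283 in subcutaneous tumours. The liver values within cluster 8 rest on 6 to 19 UMIs.

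Some members that were lower in brain were also low in cluster 8 and others were not, with no test. Efna3 was at 1.29 there and at 20.1 in cluster 0 (led by Igfbpl1, Tubb2b and Isl1), and outside cluster 8 it still lay lower in brain, at 6.08 ± 0.212 against 7.09 ± 1.05 in liver and 9.11 ± 1.79 in subcutaneous samples (SD, n = 2, 3 and 3). Efnb1 within cluster 8 was at 4.76 ± 0.346 in brain, 12.9 ± 0.4 in liver and 16.2 ± 6.78 in subcutaneous samples. Ephb6, at 5.88, Epha8, at 1.08, and Ephb1, at 0.835, each had their lowest level of the 13 clusters in cluster 8. Outside cluster 8, Ephb6 was at 12.1 ± 0.919 in brain, 12.9 ± 0.721 in liver and 14.5 ± 1.85 under the skin (SD, n = 2, 3 and 3), closer together than in the sums. Epha8 still lay lower in brain outside cluster 8, at 2.08 ± 0.530 against 4.73 ± 1.22 in liver and 3.73 ± 0.498 under the skin. Ephb1 outside cluster 8 was at 2.71 ± 0.0919, 2.28 ± 0.274 and 5.15 ± 1.33, with subcutaneous tumours again highest.

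**Figure D3:**
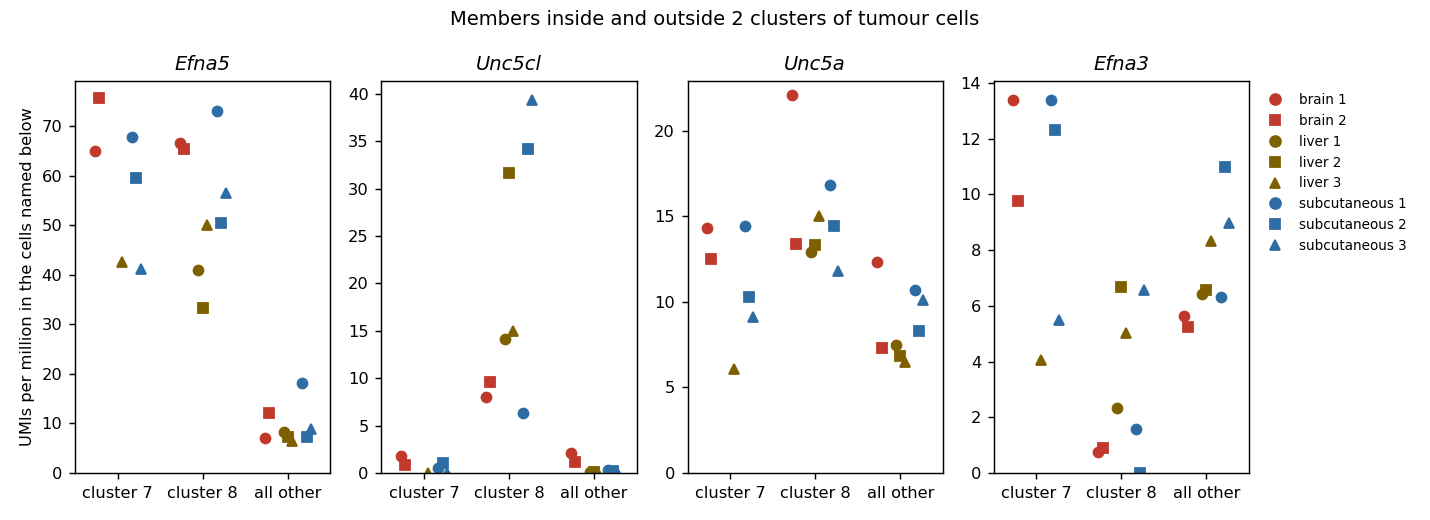
CPM of 4 members in tumour cells of cluster 7, of cluster 8 and of all other clusters, with 1 point per sample where it held at least 30 such cells and each panel on its own axis from 0. Efna5 is between 33.3 and 75.6 in both clusters in every sample shown and at most 18.2 elsewhere, and Unc5cl is high in cluster 8 in all sites.

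Host and tumour cells were compared within the 4 libraries that held at least 50 host cells, which were brain replicates 1 and 2, liver replicate 2 and subcutaneous replicate 1, with 779, 282, 55 and 191 host cells. Of 32 members tested, 6 were higher and 15 lower in host cells (edgeR with the library as a block, adjusted p under 0.05), which is 65.6% of the members called, 18.8% higher and 46.9% lower, beside 57.1% of all genes, 26.3% higher and 30.8% lower. Of the 32, Ephb4, Epha1 and Robo4 had too few UMIs for the fit of tumour cells. They, and also Efna1, Epha2 and Unc5b, passed the filter on low counts in this fit through the host cells. No test of these genes is read here. The median log2 fold change of host over tumour cells was -1.74 for the members and -0.22 for all genes. The cells compared differ in type as well as in origin, and the number of host cells per type was not even.

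Counted as higher in host cells were the receptors Unc5b, Epha2, Ephb4 and Robo4, the ligand Efna1, and Unc50. All but Unc50 passed the filter through the host cells and are given as values only. Unc50 had a log2 fold change of 0.53 (adjusted p = 0.0383 by edgeR). Its call was lost without brain replicate 1, brain replicate 2 or subcutaneous replicate 1 (adjusted p = 0.169, 0.142 and 0.0515 by edgeR). Epha2 had 31, 2, 0 and 3 host UMIs in brain replicates 1 and 2, liver replicate 2 and subcutaneous replicate 1. Unc5b had 16, 7, 0 and 4 in the same order. Efna1 was at 10.4 and 3.997 CPM in host cells of the brain samples, at 27.9 in subcutaneous replicate 1 and at 0 in liver replicate 2, where 0 counts allow up to 13.7. In tumour cells of the same libraries it was between 0.155 and 0.523. Ephb4 was at 6.96, 1.60, 4.56 and 6.98 in host cells of brain replicates 1 and 2, liver replicate 2 and subcutaneous replicate 1, against 0 to 4 UMIs in the tumour cells of each library.

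The 15 members counted as lower in host cells included 9 of the 10 with a site mean of at least 10 CPM in tumour cells. The exception was Unc50, and low members such as Epha8, Unc5d and Ntn4 were also among the 15. Unc5d had 0 UMIs in host cells, and Epha8 had 1 in each brain sample and 0 in liver replicate 2 and subcutaneous replicate 1. Ephb2 had 3, 0, 0 and 4 host UMIs in brain replicates 1 and 2, liver replicate 2 and subcutaneous replicate 1. Robo1 had 1, 0, 0 and 2. Unc5d, Epha8, Ephb2 and Robo1 entered the fit through the tumour cells, so they are counted but no test of them is read here. Robo2 was at 1.24, 1.60, 0 and 0.996 in host cells, in the same order, and at 35.7, 42.5, 31.6 and 39.6 in tumour cells (log2 fold change -4.67, SE 0.36, adjusted p = 4.551e-05 by edgeR). Epha5 had a log2 fold change of -4.42, Unc5a of -3.98, Ephb6 of -3.78, Ephb3 of -3.62 and Efna2 of -2.88. The ligands Efna5 and Slit1 were also lower in host cells, both at -3.21. The size of these differences depended on the limit that defines host cells. With all cells under 0.2% of eGFP and Mycl UMIs as host cells, the log2 fold changes were -3.03 for Robo2 and -2.40 for Epha5. They were -2.86 for Unc5a, -1.996 for Ephb6, -2.43 for Ephb3, -1.96 for Efna2 and -1.94 for Efna5. Slit1 then gave -1.58 and lost its call (adjusted p = 0.0582 by edgeR), as did Efna3, Ntn4 and Unc5d, so that 17 members passed beside 46.4% of all genes. For Unc5d, 0 UMIs were counted among 6497341 host UMIs, which allows up to 0.462 CPM, against 1.46 to 3.37 in tumour cells.

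By class of host cell, with libraries pooled and no test, the endothelial-like cells (61 cells, 41 of them from brain replicate 1) held the vessel genes. Efna1 was at 226 CPM there (63 UMIs, exact 95% Poisson interval 173 to 289, for counting error only). Robo4, a Robo of blood vessels, was at 122 (34 UMIs, interval 84.3 to 170), and all 34 of its host UMIs were in this class. Ephb4, the receptor of veins, was at 96.7 (27 UMIs, 63.7 to 141) and Efnb2, its ligand on arteries, at 32.2 (9 UMIs, 14.7 to 61.2).

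Slit3 was the member of the fibroblast- or pericyte-like cells, at 120 CPM (42 UMIs in 78 cells, interval 86.1 to 162), and 70 of those cells came from subcutaneous replicate 1. In tumour cells Slit3 had 9 UMIs in that library and 0 in the other libraries of the host comparison. In the oligodendrocyte-like cells, which came from the brain samples, Efnb3 was at 427 (48 UMIs in 22 cells, 314 to 566), Ephb1 at 124 (14 UMIs, 68.0 to 209) and Unc5b at 88.9 (10 UMIs, 42.6 to 163). Efnb3, an ephrin of myelin, had 84.2% of its host UMIs in these cells. Unc5b had more of its host UMIs in the endothelial-like cells (13 of 28, 46.4%) than in any other class. The microglia-like cells (221 cells) held Efnb1 at 18.2 (17 UMIs, 10.6 to 29.1) and Epha2 at 12.8 (12 UMIs, 6.64 to 22.4). A cluster of 73 cells among the host cells carried tumour markers, and without it 22 members passed in place of 21, a comparison chosen after seeing the data.

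**Figure D4:**
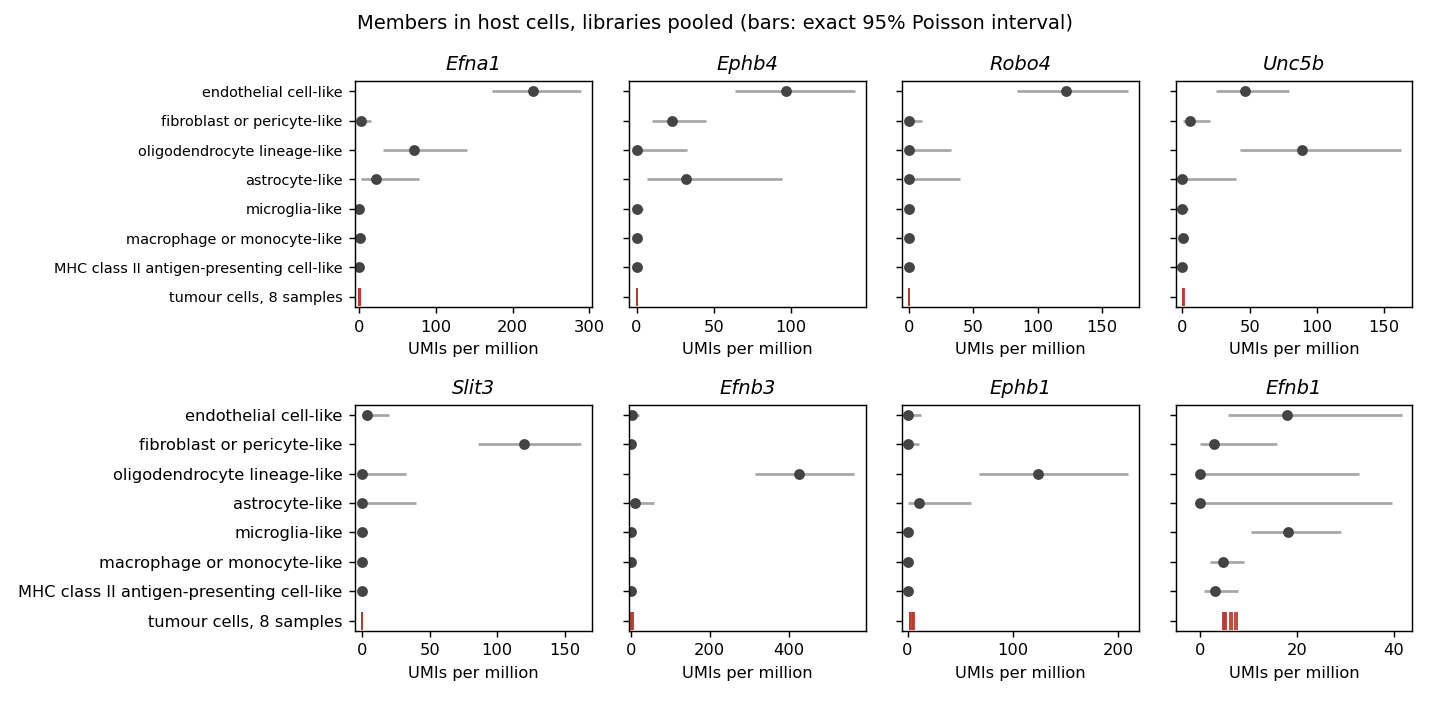
CPM of 8 members in 7 classes of host cells named from markers, libraries pooled (points, with exact 95% Poisson intervals as bars), and in tumour cells of the 8 samples (red ticks). Efna1, Ephb4 and Robo4 are highest in the endothelial-like cells, Slit3 in the fibroblast- or pericyte-like cells, and Efnb3 and Ephb1 in the oligodendrocyte-like cells.

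The signalling partners of the 3 systems were read from lists in the same fit of tumour cells, where 21.8% of all genes passed between brain and liver, 15.1% between brain and subcutaneous tumours and 2.83% between liver and subcutaneous tumours. Of 25 tested partners of ephrins and Ephs, 2 were higher and 1 lower in brain than in liver, and 2 were higher and 1 lower in brain than in subcutaneous tumours. Of 19 tested partners of Slits and Robos, 2 were higher and 3 lower in brain than in liver, and 1 higher and 3 lower than in subcutaneous tumours. Of 23 tested netrin partners, 3 were higher and 1 lower in brain than in liver, and 0 higher and 2 lower than in subcutaneous tumours. Between liver and subcutaneous tumours 1 of all these partners passed, Flrt3. All 9 medians lay between -0.12 and 0.08 on the log2 scale.

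Among them, Chn2, a chimaerin that acts downstream of Eph receptors, was at 8.35 and 10.95 CPM in brain, 2.88, 3.24 and 2.85 in liver, and 8.32, 4.51 and 4.34 in subcutaneous tumours, with subcutaneous replicate 1 at the level of brain. Its log2 fold change of brain over liver was 1.58 (SE 0.28, adjusted p = 0.0061). Fyn, a kinase recruited by ephrins and Ephs, was lower in brain than in liver (-0.54, SE 0.11, adjusted p = 0.0104) and than in subcutaneous tumours (-0.64, SE 0.11, adjusted p = 0.0089). Nell2, a secreted ligand of Robo3, was at 3.50 and 5.19 in brain, 0.284, 0.209 and 0.281 in liver, and 2.35, 0.467 and 0.405 in subcutaneous tumours, while Robo3 itself was at most 0.0578 in any tumour sample. Vasp, an actin regulator downstream of Robo, fell in brain against liver by 0.81 on the log2 scale (SE 0.13, adjusted p = 0.0039). Rgmb, a ligand of the netrin receptor neogenin, was at 17.4 and 14.0 in brain, 24.4, 21.4 and 23.6 in liver, and 23.8, 31.0 and 31.9 in subcutaneous tumours, lower in brain than in liver (-0.68, SE 0.16, adjusted p = 0.0162) and than in subcutaneous tumours (-0.89, SE 0.16, adjusted p = 0.0094).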

How the data were processed

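The authors deposited 1 matrix of whole-number UMI counts per sample with gene and barcode tables, made with Cell Ranger 3.0.0 per the file headers, and on build mm10 per the submitters' processing notes. The annotation is not given in the sources used here. The lowest deposited cell had 501 UMIs. Cells under 500 genes or above 10% mitochondrial UMIs were dropped, no doublet caller was run, and 41.4% of tumour cells had at least 1 UMI of a host marker and were left out in an alternative. That alternative kept 443 and 1662 tumour cells in brain replicates 1 and 2. Deposited counts of tumour cells were summed per sample and fitted in R 4.3.3 with edgeR 4.0.16 (TMM, filterByExpr, robust quasi-likelihood, 1 mean per site over 8 samples, 5 residual degrees of freedom). Host cells were fitted with the library as a block (3 residual degrees of freedom). The SE is the log2 fold change divided by the root of F. Levels are CPM over the summed cells. Tumour and host cells were clustered with scanpy 1.11.5 (2000 variable genes, 30 and 20 principal components, 15 neighbours, Leiden resolution 0.5 and 1), and classes were named from at least 3 markers present in at least 20% of cells. Tests were checked on simulated data.

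The members, marker and partner lists were chosen with earlier results of these data known. Members past the threshold in a site contrast are given per sample, those at 10 CPM or more by site means, and the 4 partners per list with the smallest adjusted p were eligible to be named. Alternatives covered DESeq2 1.42.0, size factors, filters, cell thresholds, cell numbers, a block for the replicate number, cells low in G2/M genes and leaving out each sample. With 2 brain samples the spread between samples limits the precision. The genomic windows used GENCODE M21 for exons.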

Additional observations from a re-analysis of the deposited data

How the results depend on the processing

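No site difference past the threshold changed direction under the settings run. For the 17 site differences past the threshold, settings other than leaving out a sample kept 178 of 204 calls, and leaving out a sample kept 70 of 136. The cause was not tested. Leaving out each sample in turn moved the members called between brain and liver from 9 to between 2 and 13, between brain and subcutaneous tumours from 7 to between 0 and 15, between liver and subcutaneous tumours from 1 to between 0 and 4, and in host cells from 21 to between 15 and 21. The genes called overall moved in the same way, from 3032 to between 1112 and 4557, from 2099 to between 383 and 4754, and from 394 to between 33 and 1024. A lone brain sample in these fits is assumed to vary like the other sites. With only the 2 sites compared in the fit, brain against subcutaneous tumours gave 1 member and 728 genes, and liver against subcutaneous tumours gave 0 members. DESeq2 gave 3 members and 1056 genes between liver and subcutaneous tumours, cells under 4 G2/M UMIs gave 2 members, and library totals without TMM, added after seeing the data, gave 3 members and 713 genes. Without thinning, the mean share of cells with an Efna5 UMI was 21.1% in brain, 7.67% in liver and 12.8% under the skin, since deeper cells show more genes.

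The labels' replicate numbers are shared between sites. Deviations of same-numbered samples correlated between -0.24 and 0.24, over 0.1 in 3 of 7 pairs. Deviations from means of so few samples are tied within a site, so these values cannot decide whether the numbers pair the samples. With the replicate block 5 members were called between brain and liver, 4 members and 1378 genes between brain and subcutaneous tumours, and 229 genes between liver and subcutaneous tumours.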

Other observations

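A small cluster of 107 tumour cells, led by Igfbp7, Scgb3a2 and Bpifb1, had the highest level of the 13 clusters for 10 members, with no test. Its 10 leading genes also held Dcn, Sparc, Ly6c1 and Mgp, genes known from fibroblasts and vessels, and the members included Slit3, Robo4 and Ephb4, which among host cells were highest in the fibroblast- or pericyte-like and endothelial-like cells. The part of host transcripts in these levels was not tested. Slit3 and Ephb4 were at 4.35 CPM each (5 UMIs each) against at most 0.559 and 0.279 in the other clusters, and Robo4 was at 1.74 (2 UMIs) against at most 0.0631. Efnb2 was at 20 CPM (23 UMIs) against 1.14 to 10.9, Ephb1 at 24.4 (28 UMIs) against 0.835 to 8.84, and Efna1 at 17.4 (20 UMIs) against 0 to 2.79. The others were Epha1, Epha2, Unc5b and Unc5c, on 2 to 6 UMIs. The cells came from all 8 samples, 3 to 35 per sample.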
